A study of Homo sapiens with 24 samples.

Results

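HepaRG cells are bipotent progenitors from human liver: kept confluent and then exposed to dimethyl sulfoxide (DMSO), the line yields hepatocyte-like cells beside biliary-like ones. In this study, the hepatocyte-like population was detached gently with trypsin, sown sparsely to set off reprogramming, and collected at intervals. The comparison described here sets the 3 arrays of cells collected 4 h after sowing against the 3 arrays of cells collected at the start (0 h), which is 6 of the 24 arrays of the course. Its members were chosen by the time in the sample titles, and all 22215 probe sets that are not controls were considered. Both groups are the same cell line, had been grown in serum with insulin and hydrocortisone and then with DMSO, and had been detached in the same way, so they differ by label only in the time since sowing. The model is a single line, and the hepatocyte-like cells were obtained by selective detachment, not by a marker. The labels number the replicates but do not say that they came from separate cultures, so the p-values rest on array-to-array spread alone, which may be technical. The number of arrays limits the precision.

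Freshly detached hepatocytes are known to leave their quiescent, metabolically specialised state. Loss of contacts and attachment to a new surface are known to activate growth factor, stress and inflammatory signalling, which is read out first by short-lived messenger RNAs of transcription factors and chemokines and then by genes of the cytoskeleton, of adhesion and of ribosome assembly. Many liver-specific transcripts, such as that of albumin, are very abundant and long-lived.

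The hepatocyte identity of both groups was checked against its markers. Albumin, the main plasma protein of hepatocytes, had signals of 59163, 58002 and 55844 at 4 h, against 59332, 77526 and 71484 at 0 h. The summed signal of the 11 hepatocyte markers on the array lay between 376201 and 423376 at 4 h and between 450943 and 491334 at 0 h. HNF4A, a defining hepatocyte factor, is not analysed here. The summed signal of the 7 cholangiocyte markers on the array lay between 18461 and 23356 at 4 h and between 4746 and 5181 at 0 h, and most of it was KRT19. The second defining cholangiocyte marker, EPCAM, was near the dim end of the array at both times, with 51.8, 7.03 and 5.65 at 4 h against 46.7, 20.4 and 10.7 at 0 h. The sums for fibroblast and stellate cells were 1936 to 2348 at 4 h and 1847 to 2255 at 0 h, but their members moved both ways. The defining marker DCN had 852, 793 and 654 at 4 h, against 408, 412 and 319 at 0 h. The other defining marker, COL1A1, had 13.8, 206 and 117 at 4 h, against 186, 183 and 121 at 0 h. ACTA2 had 739, 871 and 786 at 4 h, against 1290, 918 and 1264 at 0 h. Of the 7 tested, 1 was called higher and 1, COL1A2, lower, and neither count was stable. The number higher was 2 without 4 h replicate 3 or 0 h replicate 1 or 2. It was also 2 with quantile normalization or median centring. The number lower was 0 without any 1 of 5 arrays (all 4 h replicates and 0 h replicates 1 and 3). It was also 0 with quantile normalization, median centring or a larger pseudocount. The sums for leukocytes and macrophages were 713 to 786 at 4 h and 616 to 912 at 0 h. The endothelial sums were 255 to 421 at 4 h and 364 to 556 at 0 h, with CDH5 at or below 44.2 on all 6 arrays. Of the 3 endothelial markers tested, 1 was called lower, and 0 without 0 h replicate 2. The part of these other cell types in the results was not tested. In such bulk samples, fewer cells of a type and less RNA per cell cannot be told apart.

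For beta-actin, the signal of the 3' control probe set over that of the 5' one, a ratio that is higher in degraded RNA, was 1.34, 1.72 and 2.12 at 4 h, against 2.03, 6.91 and 2.56 at 0 h (exact permutation test, two-sided p = 0.2, where 0.1 is the smallest that 3 arrays against 3 can give). Replicate 2 at 0 h therefore stands apart, and list counts that move by over 1.5 times without it are given beside the list. For GAPDH the same ratio averaged 1.02 ± 0.0977 on the 4 h arrays, against 1.38 ± 0.471 on those of 0 h (SD, n = 3 each, exact permutation p = 0.1), and every 0 h array lay above every 4 h array. The part of RNA quality in the results was not tested. Array medians over all probe sets averaged 122 ± 6.66 on the 4 h arrays, against 135 ± 6.11 on those of 0 h (SD, n = 3 each, exact permutation p = 0.1). Across genes, arrays of the same time correlated at 0.946 to 0.949 at 4 h and at 0.936 to 0.942 at 0 h, and arrays of different times at 0.868 to 0.89.

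By 4 h, 1465 of the 9966 genes tested (14.7%) were called changed, that is, with an adjusted p under 0.05 and a difference of at least 2-fold. Of these, 757 were higher (7.60%) and 708 lower (7.10%) at 4 h than at 0 h. The counts of the lists below are to be read against these shares. The rises were larger than the falls: 209 genes were higher at 4 h by at least 4-fold and 67 lower, and at 16-fold the counts were 21 and 1. The single gene in the last count was FOS. Without 0 h replicate 2, 768 genes were called higher and 589 lower, and 671 and 535 of those called with all arrays were among them. The median log2 change of all genes was -0.16 under the deposited scaling, -0.10 with quantile normalization and -0.03 when each array was centred on its median, so list medians below are to be read against -0.16. Among all genes tested, the 3 arrays at 4 h all lay above the 3 at 0 h for 15.9% and all below for 25.0%, 40.9% in either direction. A lack of overlap noted below for single genes is to be read against these shares. Among the called genes, 724 of the 757 higher and 680 of the 708 lower had no overlap. For a called gene, a lack of overlap therefore adds little to the call. The share of higher genes among those called was 51.7% as deposited, 57.2% with quantile normalization and 65.5% with median centring.

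A log2 change is 4 h minus 0 h on the log2(signal + 18) scale, where 1 is a 2-fold difference for bright genes. The added 18 understates the change of dim genes, and signals near or under it have no reliable order.

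**Figure D1:**
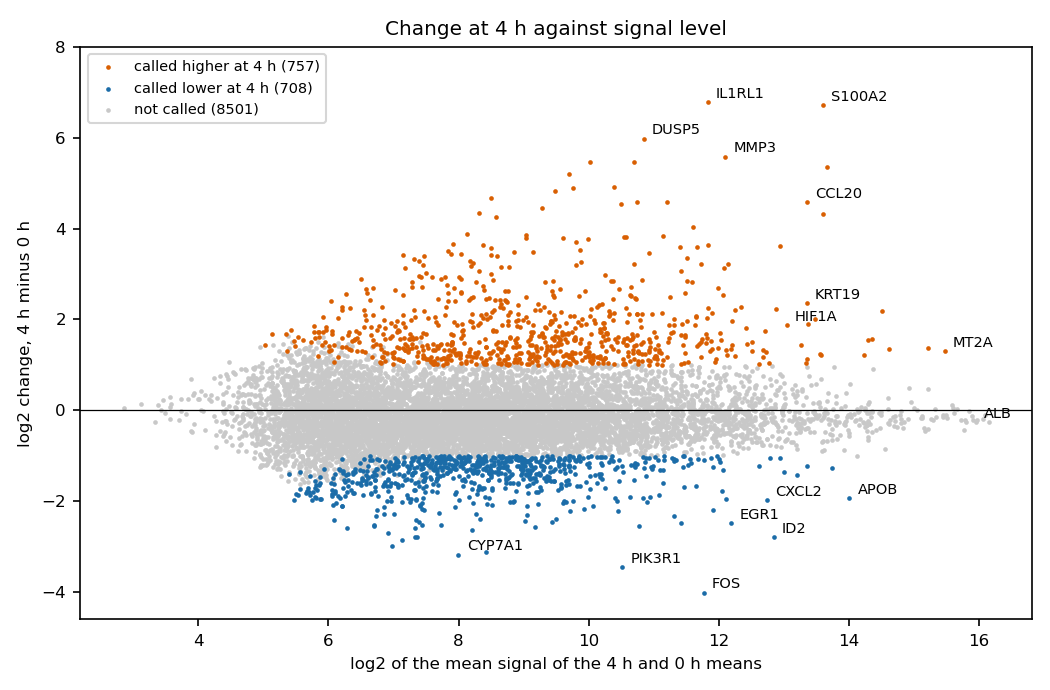
Each point is a gene, with the log2 of its average signal at 4 h and 0 h on the x axis and its log2 change, 4 h minus 0 h, on the y axis. The 757 genes called higher are orange, the 708 called lower blue and the rest grey; the largest rises, such as IL1RL1 and DUSP5, go well beyond the largest falls, FOS and PIK3R1.

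Many of the largest rises were of genes near the dim end at 0 h. IL1RL1, the receptor for interleukin-33, had signals of 7552, 6656 and 7512 at 4 h, against 81.5, 11.4 and 77.1 at 0 h, and a second probe set of the gene changed by 1.03. S100A2, a calcium-binding protein of epithelia, had 21063, 28542 and 24623 at 4 h, against 216, 226 and 206 at 0 h, a log2 change of 6.71 ± 0.14 (SE, adjusted p = 1.1e-26). The groups of arrays lie far apart for both genes, although the rule for choosing the largest rises required that they not overlap. The scaffold protein of protein kinase A, AKAP12, had 24006, 25101 and 26888 at 4 h, against 476, 804 and 552 at 0 h. DHRS9, a retinol dehydrogenase, had 2724, 2973 and 2097 at 4 h, against 106, 23.8 and 102 at 0 h. ARL14, a small GTPase of the ARF family, had 630, 648 and 853 at 4 h, against 6.23, 17.6 and 8.5 at 0 h. Every array at 4 h was far above every array at 0 h for these 3 genes, which were chosen by the same rule. Also among the 15 largest rises were DUSP5, MMP3, CCL2, KRT23, EREG, MAFF, F3, CCL20 and TNC, described below, and LMCD1, a LIM domain cofactor of transcription factors, with a log2 change of 4.58 ± 0.19.

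The largest falls included regulators of transcription and signalling. FOS, the immediate early partner of JUN in AP-1, had 287, 453 and 377 at 4 h, against 8415, 7804 and 3630 at 0 h. PIK3R1, the regulatory subunit of phosphoinositide 3-kinase, had 222, 212 and 256 at 4 h, against 2609, 2837 and 2661 at 0 h. ID2, an inhibitor of basic helix-loop-helix factors, had 1646, 1962 and 1772 at 4 h, against 17440, 10156 and 11263 at 0 h, with a log2 change of -2.80 ± 0.18 (SE). All 3 were bright at 0 h, and every array at 4 h lay below every array at 0 h, as the rule for choosing them required. ZBTB18, a zinc finger repressor, had 160, 139 and 164 at 4 h, against 959, 1003 and 1032 at 0 h, although a second probe set changed by 0.29 and leaves its fall uncertain. Most of the others fell to the dim end. SIRT4, a mitochondrial sirtuin, had 10.9, 9.15 and 7.99 at 4 h, against 172, 135 and 132 at 0 h, and CLDN14, a tight junction claudin, had 15.5, 8.5 and 18.4 at 4 h, against 204, 212 and 295 at 0 h. EAF2, a partner of transcription elongation factors, had a log2 change of -2.70 ± 0.40, the centrosomal gene CEP76 one of -2.80 ± 0.38, and the zinc finger genes ZNF862 and ZXDC had changes of -2.86 ± 0.48 and -2.79 ± 0.51 (SE). ELOA-AS1, annotated as an antisense transcript, changed by -2.59 ± 0.39.

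**Figure D2:**
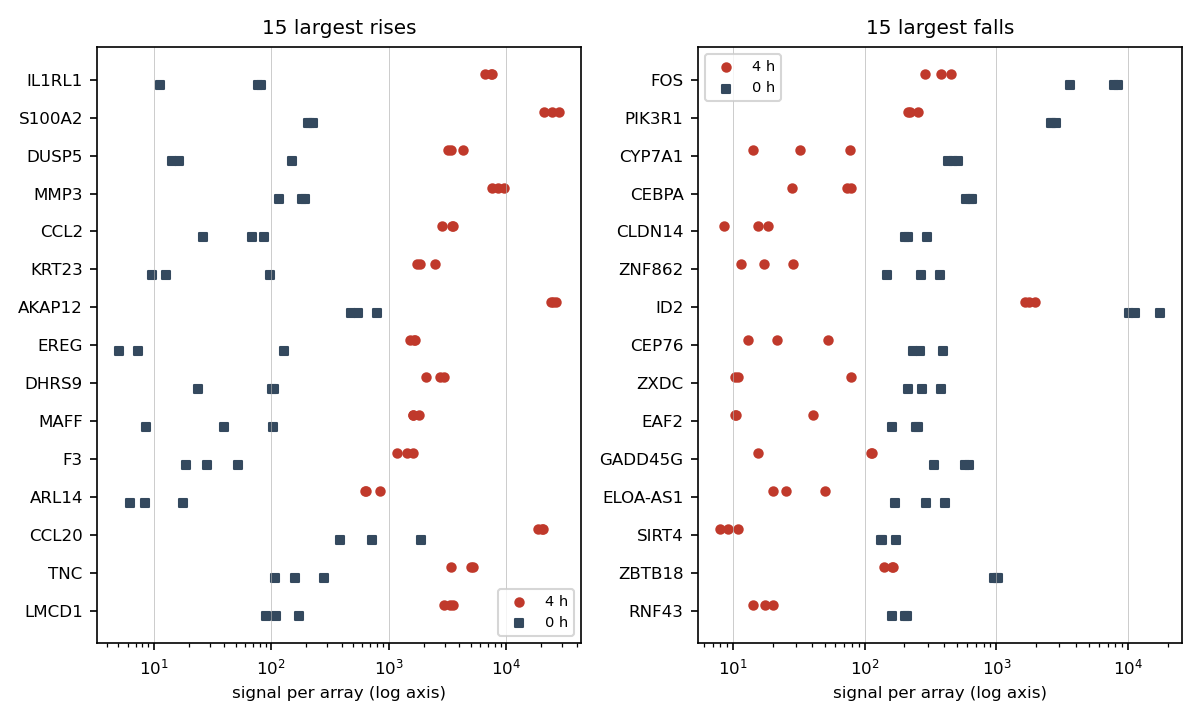
Signal of each array on a log axis for the 15 genes with the largest rises (left) and the 15 with the largest falls (right), with 4 h as red circles and 0 h as dark squares. The arrays of the 2 times do not overlap for any of these genes, as the rule for choosing them required.

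Among 28 immediate early transcription factors, 11 were called higher and 4 lower at 4 h, with a median log2 change of 0.40. The list was split between genes that were up and genes that had come down. MAFF, a small bZIP factor, had 1615, 1610 and 1828 at 4 h, against 104, 8.59 and 39.3 at 0 h. FOSL1, a FOS relative, had 870, 906 and 776 at 4 h, against 133, 14.2 and 76.1 at 0 h. FOS and FOSL1, paralogs that both pair with JUN proteins, thus went opposite ways. EGR1, a zinc finger factor induced by growth factors, had 1247, 1479 and 1187 at 4 h, against 9343, 10721 and 4044 at 0 h. IER2 fell too, with 2182, 1704 and 1511 at 4 h, against 6058, 10445 and 3706 at 0 h. JUN was called lower with -1.05 ± 0.24 from a probe set of the _x_at kind, which can cross-hybridize with similar transcripts, but its other probe sets gave -1.47, 0.17 and -0.44 and its direction is uncertain. Of the Krueppel-like factors, which bind GC-rich promoters, 4 of 14 were called higher and 1 lower. KLF6 had 5843, 3891 and 5055 at 4 h, against 2301, 1309 and 754 at 0 h, with 2.23 and -0.43 by its other probe sets, and KLF9, which responds to glucocorticoids, had 591, 470 and 366 at 4 h, against 1602, 1810 and 1393 at 0 h. MYC, the growth-promoting factor, had 6131, 5073 and 4499 at 4 h, against 3073, 2361 and 1249 at 0 h, a log2 change of 1.31 ± 0.21. At 0 h, replicate 3 was the lowest array for FOS, EGR1, IER2, KLF6 and MYC. Without 0 h replicate 3, 7 of the 28 factors were called higher, and MYC (0.94) and KLF2 (0.65) were no longer called, while 2 Krueppel-like factors were called lower.

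Against the same 0 h arrays, the median log2 change of the immediate early factors was 1.19 at 1 h, 0.40 at 4 h and -0.01 at 8 h. FOS averaged 6616 ± 2604 in the 0 h arrays, 3696 ± 700 in those of 1 h, 372 ± 83.3 in those of 4 h and 75.3 ± 53.2 in those of 8 h (SD, n = 3 each). ID2 began with 12953 ± 3925 at 0 h, averaged 23547 ± 1075 at 1 h, then 1793 ± 159 at 4 h and lastly 1265 ± 291 at 8 h, so that a peak at 1 h precedes a level at 4 h that is below the start. FOSB, chosen after its values were seen, passed through 475 ± 288 at 0 h, 4854 ± 498 at 1 h and 334 ± 127 at 4 h, so the comparison of 4 h with 0 h gives only -0.30 ± 0.45 (not called).

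**Figure D3:**
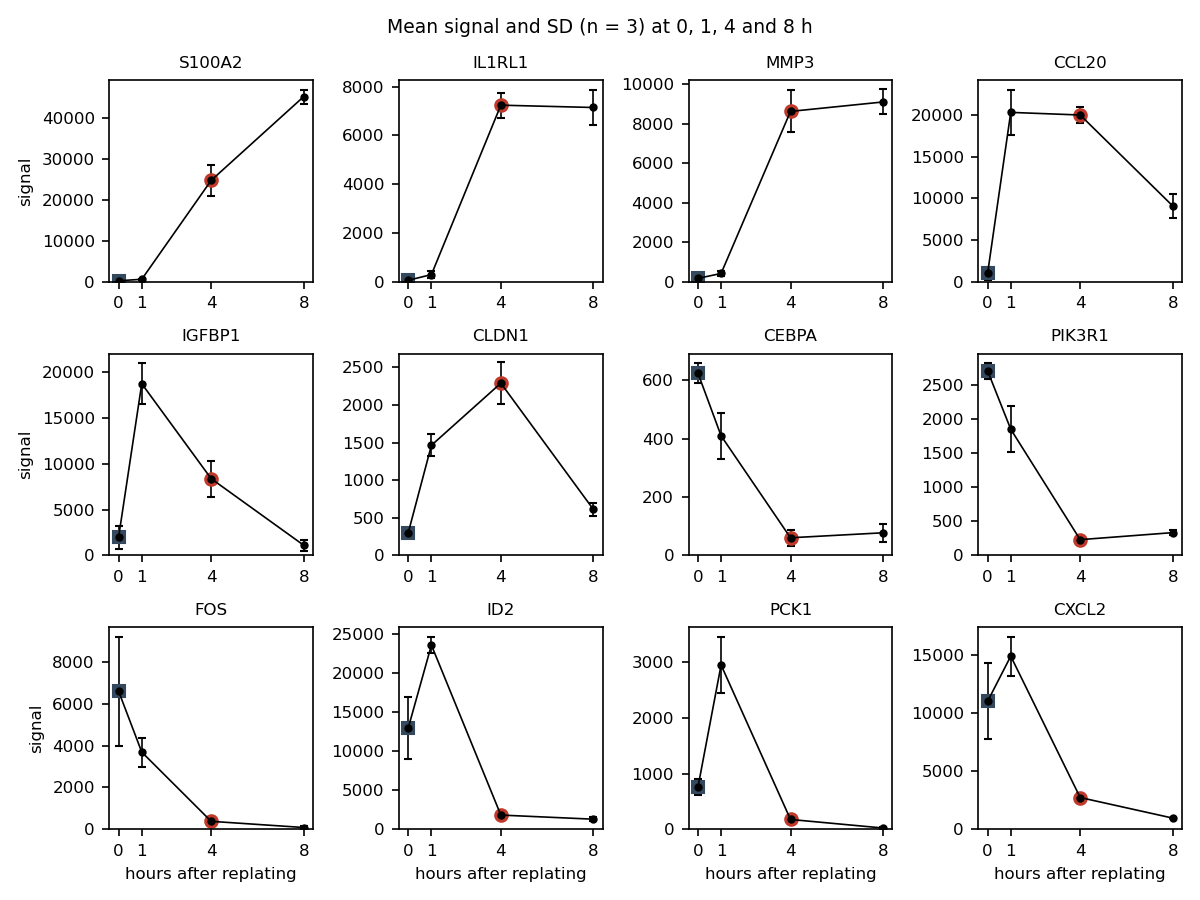
Mean signal (points) and SD (bars, n = 3) of 12 genes against hours after replating, with 0 h marked by a dark square and 4 h by a red circle. S100A2, IL1RL1 and MMP3 were far lower at 1 h than at 4 h, CCL20 was already at its 4 h level at 1 h, IGFBP1, ID2 and PCK1 peaked at 1 h, and CLDN1 peaked at 4 h.

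Feedback genes of the ERK kinase pathway were the list with the highest median. ERK, the kinase downstream of growth factor receptors, is held in check by phosphatases of the DUSP family and by Sprouty and SPRED proteins. Of 14 tested, 10 were called higher and 0 lower, with a median log2 change of 1.80. DUSP5, a nuclear ERK phosphatase, had 4292, 3390 and 3187 at 4 h, against 150, 14.2 and 16.4 at 0 h, a log2 change of 5.98 ± 0.34. PHLDA1 had 3882, 2857 and 4033 at 4 h, against 447, 347 and 179 at 0 h, and all 4 of its other probe sets changed by between 1.87 and 3.67. DUSP7, a cytosolic ERK phosphatase, had 311, 417 and 472 at 4 h, against 17.6, 20.5 and 95.1 at 0 h, while its other probe set gave -0.43 and leaves the rise uncertain. The list did not move as a block. DUSP1 and DUSP6, named after their values were seen, were bright at both times and had changes of -0.14 ± 0.17 and -0.01 ± 0.24. DUSP1 had 22879, 19196 and 17321 at 4 h, against 23199, 25118 and 17608 at 0 h, and the arrays overlap.

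Receptor tyrosine kinases of the EGF receptor family bind EGF-like ligands and signal through ERK and phosphoinositide 3-kinase. Of 10 ligands, receptors and the sheddase ADAM17, 5 were called higher and 1 lower, with a median of 0.92. The ligand epiregulin, EREG, had 1645, 1667 and 1535 at 4 h, against 5.1, 128 and 7.38 at 0 h. The heparin-binding ligand HBEGF had 363, 415 and 498 at 4 h, against 139, 29.8 and 23.9 at 0 h, and the neuregulin NRG1 had 1064, 1368 and 1533 at 4 h, against 144, 249 and 193 at 0 h, with other probe sets of NRG1 between -0.39 and 2.20. For each of the 3 ligands, every array at 4 h lay above every array at 0 h. Among the receptors, EGFR had 1614, 1819 and 1913 at 4 h, against 553, 540 and 483 at 0 h. ERBB3, the neuregulin-binding receptor with little kinase activity of its own, had 244, 372 and 244 at 4 h, against 1440, 1587 and 1143 at 0 h, a log2 change of -2.22 ± 0.24 (adjusted p = 9.25e-09), with -0.42 by its other probe set. EGFR and ERBB3 thus went opposite ways with no overlap of the arrays.

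Cytokine transcripts were mixed in direction, with 7 of 17 called higher and 2 lower at 4 h and a median of 0.96. CCL2, which attracts monocytes, had 2845, 3450 and 3510 at 4 h, against 87.2, 68.7 and 26.2 at 0 h. CCL20, the ligand of CCR6, had 18895, 20645 and 20418 at 4 h, against 1884, 722 and 389 at 0 h. IL18, a cytokine of the interleukin-1 family, had 1054, 1116 and 994 at 4 h, against 65.4, 84.5 and 85.5 at 0 h, a log2 change of 3.48 ± 0.19. LIF, a cytokine of the interleukin-6 family, had 580, 601 and 794 at 4 h, against 131, 62.4 and 46.3 at 0 h. These 4 were called higher, with no overlap of the arrays, where 15.9% of all genes tested lay wholly higher at 4 h. TNFSF10, the death ligand TRAIL, had 523, 481 and 663 at 4 h, against 2396, 2154 and 1926 at 0 h, and fell by both other probe sets as well (-1.32 and -1.41). IL6, the inducer of the hepatic acute phase response, was not called. Named after its values were seen, it had 181, 160 and 213 at 4 h, against 70, 83.8 and 106 at 0 h, a log2 change of 0.96 ± 0.29. The cytokine list had a median of 2.44 at 1 h and 0.28 at 8 h against the same 0 h arrays.

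CXCL1 and CXCL2 are paralogs on chromosome 4 that both attract neutrophils. CXCL1, named after its values were seen, had 488, 854 and 737 at 4 h, against 338, 352 and 166 at 0 h, a log2 change of 1.26 ± 0.26. CXCL2 had 2291, 2787 and 3084 at 4 h, against 14391, 10810 and 7846 at 0 h, a log2 change of -1.98 ± 0.19. CXCL2 is read by an _x_at probe set, which makes its value uncertain. The 2 genes ended at 4 h on opposite sides of their starting levels, although both were higher at 1 h than at 4 h, with means of 6155 ± 516 for CXCL1 and 14908 ± 1692 for CXCL2 at 1 h.

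Induction of such genes is known to run through NF-kappaB, so the 250 bases before the start of transcription were searched on both strands for its binding pattern, GGGA and CC with any 4 bases between them. RefSeq promoter sequences (GRCh38.p14) were at hand for 4 of the 7 cytokines called higher and for both called lower. The pattern was present in 4 of the 4 called higher and in 1 of the 2 called lower, and in 22.1% of all 27305 promoters in the table, 27.4% of those of genes tested and 30.3% of those of all genes called higher. Among the NF-kappaB subunits and feedback genes called higher it was present in 3 of 7 with a promoter entry. The promoters of the CXCL1 and CXCL2 pair are shown because they carry the same match, in capitals, while the transcripts moved apart, and those of CCL20 and TNFAIP3 as called members, 1 of each list. A match is a description of the letters and not of binding. In order, they lie at chr4:73869143-73869392 (plus strand), chr4:74099196-74099445 (minus), chr2:227813592-227813841 (plus) and chr6:137867009-137867258 (plus).
CXCL1: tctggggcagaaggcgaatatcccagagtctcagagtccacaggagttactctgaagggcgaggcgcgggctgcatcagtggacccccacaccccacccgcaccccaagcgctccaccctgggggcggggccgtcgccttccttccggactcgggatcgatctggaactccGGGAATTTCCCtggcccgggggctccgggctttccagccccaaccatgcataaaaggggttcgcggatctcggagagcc
CXCL2: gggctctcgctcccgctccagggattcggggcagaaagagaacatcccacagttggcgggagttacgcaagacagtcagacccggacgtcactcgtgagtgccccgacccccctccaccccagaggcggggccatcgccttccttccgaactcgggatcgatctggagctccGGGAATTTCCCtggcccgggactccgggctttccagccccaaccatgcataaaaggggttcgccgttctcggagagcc
CCL20: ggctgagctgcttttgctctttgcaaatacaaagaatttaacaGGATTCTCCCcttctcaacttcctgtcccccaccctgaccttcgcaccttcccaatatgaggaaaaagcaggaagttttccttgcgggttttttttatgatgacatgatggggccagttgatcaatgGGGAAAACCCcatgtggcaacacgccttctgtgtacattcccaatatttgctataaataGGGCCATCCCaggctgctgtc
TNFAIP3: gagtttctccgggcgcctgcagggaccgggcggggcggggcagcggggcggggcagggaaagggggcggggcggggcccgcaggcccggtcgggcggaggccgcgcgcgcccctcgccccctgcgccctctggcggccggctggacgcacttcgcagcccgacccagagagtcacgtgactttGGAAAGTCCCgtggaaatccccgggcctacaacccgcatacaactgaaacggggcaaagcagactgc

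NF-kappaB subunits and their feedback inhibitors were called higher in 9 of 16 cases and lower in 0, with a median of 1.12. NF-kappaB is a family of dimers held in the cytoplasm by IkappaB proteins, whose genes it induces in turn. NFKB1, the precursor of the p50 subunit, had 1971, 1116 and 1427 at 4 h, against 344, 443 and 373 at 0 h. TNFAIP3, a ubiquitin-editing inhibitor also known as A20, had 5932, 5100 and 9205 at 4 h, against 763, 477 and 358 at 0 h. NFKBIE, an IkappaB protein, had 791, 906 and 755 at 4 h, against 139, 178 and 133 at 0 h. All 3 were higher on every array at 4 h. TRAF1, an adaptor of TNF receptors, had 301, 129 and 188 at 4 h, against 41.6, 141 and 7.39 at 0 h, so its arrays overlap, and its call was lost without 4 h replicate 1 (1.49) or without 0 h replicate 3 (1.13). The clotting initiator F3, known as a target of the same pathway, had 1602, 1431 and 1183 at 4 h, against 28.4, 18.9 and 52.7 at 0 h.

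Of 8 receptors and signalling partners of the interleukin-1 family, 2 were called higher and 0 lower, with a median of 0.00. Besides IL1RL1, the interleukin-1 receptor IL1R1 had 2637, 2122 and 2707 at 4 h, against 961, 1011 and 1100 at 0 h (1.14 by its other probe set). The other 6 changed by between -0.70 and 0.70.

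Actin-binding proteins such as tropomyosins, vinculin and zyxin build the stress fibres and focal adhesions of spreading cells. Of 33 actin regulators, 11 were called higher and 0 lower, with a median of 0.69. TPM4, a tropomyosin, had 1969, 1961 and 1810 at 4 h, against 201, 77.3 and 116 at 0 h. CORO1C, a coronin of the cell edge, had 8004, 9041 and 7462 at 4 h, against 858, 1116 and 673 at 0 h. ZYX, zyxin, had 906, 1284 and 1427 at 4 h, against 200, 282 and 130 at 0 h, and VCL, vinculin, had 3900, 5375 and 3946 at 4 h, against 1255, 1200 and 1013 at 0 h. Each was higher on every array at 4 h. Actin itself moved less. ACTB had 38359, 34338 and 36657 at 4 h, against 26212, 23550 and 27771 at 0 h, a log2 change of 0.50 ± 0.14 that did not reach 2-fold and comes from an _x_at probe set. The list had a median of -0.03 at 1 h and 0.99 at 8 h against the same 0 h arrays.

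Of 21 genes of integrins, focal adhesions and matrix ligands, 8 were called higher and 1 lower, with a median of 0.85. TNC, the matrix protein tenascin-C, had 5238, 5012 and 3435 at 4 h, against 107, 280 and 159 at 0 h. PLAUR, the urokinase receptor, had 810, 742 and 811 at 4 h, against 161, 47.8 and 45.4 at 0 h. LAMB3, a laminin chain, had 698, 598 and 482 at 4 h, against 53.2, 118 and 73.9 at 0 h, and THBS1, thrombospondin, changed by 2.99 ± 0.20, with other probe sets between -0.50 and 2.78. CCN2, a matricellular growth factor known as a target of YAP, went the other way, with 1292, 1264 and 1151 at 4 h, against 4451, 3459 and 1956 at 0 h. Its mean at 1 h was 5271 ± 172. Its relative CCN1, named after its values were seen, had 8119, 6255 and 7010 at 4 h, against 4905, 3979 and 2476 at 0 h (0.96 ± 0.16, just under 2-fold). CCN2 was thus called lower, while CCN1 was not called.

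Matrix proteases and inhibitors were called higher in 5 of 14 cases and lower in 0, with a median of 0.65. MMP3, stromelysin, had 8633, 9676 and 7556 at 4 h, against 183, 117 and 194 at 0 h. MMP10, its close relative, had 830, 627 and 539 at 4 h, against 89.7, 65.4 and 9.77 at 0 h. SERPINE2, a serine protease inhibitor, had 927, 1009 and 1106 at 4 h, against 253, 353 and 237 at 0 h. Proteases and an inhibitor therefore rose together. Of 17 tubulin and microtubule genes 2 were called higher, led by TUBA4A with 6269, 6165 and 5178 at 4 h, against 2171, 2225 and 2383 at 0 h. Without 0 h replicate 2, 1 of the 17 was called.

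Keratins, the intermediate filaments of epithelia, were called higher in 6 of 18 cases and lower in 0 (1 lower without 0 h replicate 2), with a median of 0.34. KRT19, a keratin of bile ducts, had 20200, 17748 and 14686 at 4 h, against 3102, 3500 and 3469 at 0 h. KRT23 had 2497, 1750 and 1866 at 4 h, against 9.59, 97.6 and 12.8 at 0 h. KRT7, the other duct keratin, stayed dim, with 93.8, 184 and 130 at 4 h, against 36.2, 8.94 and 64.8 at 0 h, and was no longer called with the larger pseudocount (0.93). Of the hepatocyte keratins, KRT18, an uncertain _x_at probe set named after its values were seen, had 29792, 29213 and 30690 at 4 h, against 11051, 10329 and 9266 at 0 h. Duct-type and hepatocyte-type keratins were thus both higher. SOX9, a duct and progenitor factor, had 1091, 983 and 1056 at 4 h, against 485, 641 and 426 at 0 h, a log2 change of 1.01 ± 0.17 that sat on the 2-fold limit and fell below it without 4 h replicate 1 or 3 or 0 h replicate 1 or 3 (0.88 to 1.00). SNAI2, a repressor active in epithelial-mesenchymal transition, had 6845, 4273 and 4523 at 4 h, against 1508, 1001 and 1139 at 0 h. CDH1, the epithelial cadherin it can repress, had 722, 724 and 746 at 4 h, against 979, 1006 and 1007 at 0 h, a change of -0.44 ± 0.25 that did not pass the test (adjusted p = 0.194, and -1.44 by its other probe set).

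S100 proteins, small calcium-binding proteins, were called higher in 6 of 12 cases and lower in 0, with a median of 1.41. Besides S100A2, S100A3 had 978, 1071 and 931 at 4 h, against 54.8, 17.3 and 110 at 0 h, and S100A14 had 775, 686 and 614 at 4 h, against 162, 102 and 136 at 0 h. S100A4, linked to motility, had 375, 538 and 451 at 4 h, against 115, 16 and 83.7 at 0 h. The list median against the same 0 h arrays was 0.11 at 1 h and 1.97 at 8 h. The annexins, which bind membranes through calcium, were called higher in 3 of 11 cases and lower in 0. ANXA1 had 5716, 4285 and 5272 at 4 h, against 1081, 493 and 616 at 0 h, and ANXA5 had 9390, 9956 and 9531 at 4 h, against 3957, 4427 and 3510 at 0 h.

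Of 19 cell junction genes, 3 were called higher and 1 lower (2 lower without 4 h replicate 1 or 0 h replicate 2), with a median of -0.25. GJA1, the gap junction protein connexin 43, had 6370, 5880 and 6261 at 4 h, against 655, 559 and 727 at 0 h. GJB1, connexin 32, the main gap junction protein of hepatocytes and named after its values were seen, had 825, 466 and 434 at 4 h, against 1071, 938 and 1268 at 0 h (-0.95 ± 0.24, just under 2-fold). Of the 2 connexins, GJA1 was called and GJB1 was not. CLDN1, a tight junction claudin, had 2535, 1991 and 2341 at 4 h, against 343, 264 and 299 at 0 h, and then 610 ± 87.2 at 8 h, with a change from 4 h to 8 h of -1.88 ± 0.18 (adjusted p = 9.81e-09). DSG2, a desmoglein of desmosomes, had 3136, 3175 and 3062 at 4 h, against 944, 1525 and 1040 at 0 h.

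Metallothioneins, small cysteine-rich proteins that bind zinc and copper, were called higher in 7 of 8 cases, with a median of 1.5, where 7.60% of all genes were called higher. Their genes are clustered on chromosome 16 and near-identical, and 6 of the 8 probe sets are of the _x_at kind, so values of single members are uncertain. MT1H had 41084, 35553 and 36773 at 4 h, against 4831, 11380 and 10300 at 0 h. MT1F had 16371, 19334 and 19314 at 4 h, against 3970, 4172 and 5539 at 0 h. MT1E had 31192, 31742 and 31082 at 4 h, against 10024, 10259 and 11614 at 0 h. MT2A, named after its values were seen, had 56121, 67688 and 70772 at 4 h, against 24474, 24588 and 29626 at 0 h. All 4 had no overlap of the arrays, where 15.9% of all genes tested lay wholly higher at 4 h. MT1M, the called member on a probe set of its own, was dim, with 19.8, 198 and 127 at 4 h, against 8.57, 5.89 and 37.7 at 0 h, and lost its call without 4 h replicate 2 or 3 or 0 h replicate 1 or 2 (1.17 to 1.53). It was the only member called when _x_at probe sets were left out. The list median against the same 0 h arrays was 0.01 at 1 h and 1.51 at 8 h.

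Metal-responsive transcription of these genes is known to act through metal response elements, with the core TGCACNC or TGCGCNC, searched here on both strands of the 250 bases before the start. RefSeq (GRCh38.p14) gave a promoter for 3 of the 7 members called higher. The core was found 8 times before MT1H, 4 times before MT1X and 7 times before MT2A. It was found at least once in 24.7% and at least 2 times in 6.51% of all promoters in the table, and in 32.1% of those of the genes called higher, against 32.1% of those of all genes tested. The 3 promoters are shown to make these repeats visible, with each core in capitals. In order, they lie at chr16:56669564-56669813, chr16:56682220-56682469 and chr16:56608334-56608583, all on the plus strand.
MT1H: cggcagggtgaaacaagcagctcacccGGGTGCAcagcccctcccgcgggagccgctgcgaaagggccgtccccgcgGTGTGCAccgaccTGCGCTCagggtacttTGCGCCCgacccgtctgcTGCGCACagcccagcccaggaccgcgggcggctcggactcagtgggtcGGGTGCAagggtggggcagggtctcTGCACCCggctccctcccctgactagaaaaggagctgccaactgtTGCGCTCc
MT1X: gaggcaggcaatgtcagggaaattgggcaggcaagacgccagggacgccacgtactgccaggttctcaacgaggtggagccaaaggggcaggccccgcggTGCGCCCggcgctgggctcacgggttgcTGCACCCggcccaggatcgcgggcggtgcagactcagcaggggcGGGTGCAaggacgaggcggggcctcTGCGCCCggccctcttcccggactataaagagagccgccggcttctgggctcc
MT2A: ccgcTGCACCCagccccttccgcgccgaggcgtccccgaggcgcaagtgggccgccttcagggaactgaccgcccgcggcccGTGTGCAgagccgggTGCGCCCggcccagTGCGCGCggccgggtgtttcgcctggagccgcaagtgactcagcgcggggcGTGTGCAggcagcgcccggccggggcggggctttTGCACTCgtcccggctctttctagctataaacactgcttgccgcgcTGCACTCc

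SLC7A11, the cystine importer that feeds glutathione synthesis, had 1078, 946 and 938 at 4 h, against 78.7, 257 and 274 at 0 h, and TXNRD1, thioredoxin reductase, named after its values were seen, had 16591, 18710 and 15955 at 4 h, against 7486, 7457 and 7178 at 0 h. HMOX1, heme oxygenase, also named afterwards, had 1470, 1113 and 1830 at 4 h, against 700, 745 and 754 at 0 h (0.96 ± 0.20, just under 2-fold). Cytosolic chaperones were called higher in 4 of 28 cases and lower in 0, with a median of 0.22, and the 14.3% called are close to the 14.7% of all genes. CHORDC1, a partner of HSP90, had 1467, 1369 and 1440 at 4 h, against 275, 364 and 343 at 0 h, and HSPB8, a small heat shock protein, had 2969, 2537 and 3239 at 4 h, against 849, 1218 and 1021 at 0 h.

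Ribosome biogenesis takes place largely in the nucleolus, where ribosomal RNA is transcribed, cut and modified by factors that are not part of the finished ribosome. Of 44 such factors, 23 were called higher and 0 lower (52.3% called, against 14.7% of all genes), with a median of 1.02. RCL1, a factor of the small subunit processome, had 5453, 4434 and 4914 at 4 h, against 565, 493 and 664 at 0 h. BYSL, bystin, had 835, 634 and 738 at 4 h, against 155, 170 and 127 at 0 h, and the nucleolar helicase DDX21 had 6922, 5736 and 5943 at 4 h, against 1422, 1429 and 1330 at 0 h. RRP12, an export factor of ribosomal subunits, had a change of 2.89 ± 0.47 by its brightest probe set but -0.77 and -0.08 by the others, and is uncertain. RCL1 differed from the others in time. It was already at 3451 ± 518 at 1 h and fell to 1368 ± 227 at 8 h, a change from 4 h to 8 h of -1.85 ± 0.15 (adjusted p = 2.29e-09), whereas DDX21 changed by -0.18 ± 0.13 in that step.

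Of 53 cytosolic ribosomal protein genes, 0 were called in either direction, with changes between -0.34 and 0.38 and a median of -0.07. The cytosolic count was 0 under every alternative run. Of 50 mitochondrial ribosomal protein genes 0 were called (median -0.14), and 1 was with median centring or without 4 h replicate 1 or 0 h replicate 1; of 27 subunits of respiratory complex I, 0 were called (median -0.21). Translation factors had 1 of 41 called higher and 0 lower, with a median of 0.12. That gene was EIF4E, which binds the messenger RNA cap, with 1961, 2484 and 1688 at 4 h, against 966, 1037 and 754 at 0 h, and its call was lost without 4 h replicate 2 (0.98) or 0 h replicate 3 (1.00). With median centring 4 of 41 were called, and 2 without 0 h replicate 1 or 2. The proteasome had 1 of 39 called, PSMD12, with 2582, 2344 and 2534 at 4 h, against 712, 1184 and 870 at 0 h, while its other probe set gave -0.12.

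Supply genes of growth were called at shares nearer to the 14.7% of all genes. Nucleotide and polyamine synthesis had 5 of 28 called higher and 0 lower (17.9% called), with a median of -0.07. With probe sets averaged per gene, 3 were called higher. SMS, spermine synthase, had 1532, 1366 and 1364 at 4 h, against 422, 616 and 395 at 0 h. UMPS, the enzyme that completes pyrimidine synthesis, had 1844, 2209 and 1713 at 4 h, against 719, 749 and 755 at 0 h. Nuclear import and export had 5 of 34 called higher and 2 lower (20.6% called), with a median of 0.09. The number lower was 1 without 4 h replicate 3, and the number higher 3 with probe sets averaged per gene. RANBP1, a regulator of the Ran GTPase, had 2411, 2307 and 2525 at 4 h, against 979, 734 and 992 at 0 h, and the importin IPO7 had 3125, 3225 and 2874 at 4 h, against 1157, 1298 and 1303 at 0 h, with -0.47 to 0.82 by its other probe sets. NUP98, a nuclear pore protein, is uncertain, since its other probe sets gave -1.42 and -1.06 against 1.67. TPR, a protein of the nuclear basket, had 578, 432 and 411 at 4 h, against 1160, 1151 and 942 at 0 h.

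**Figure D4:**
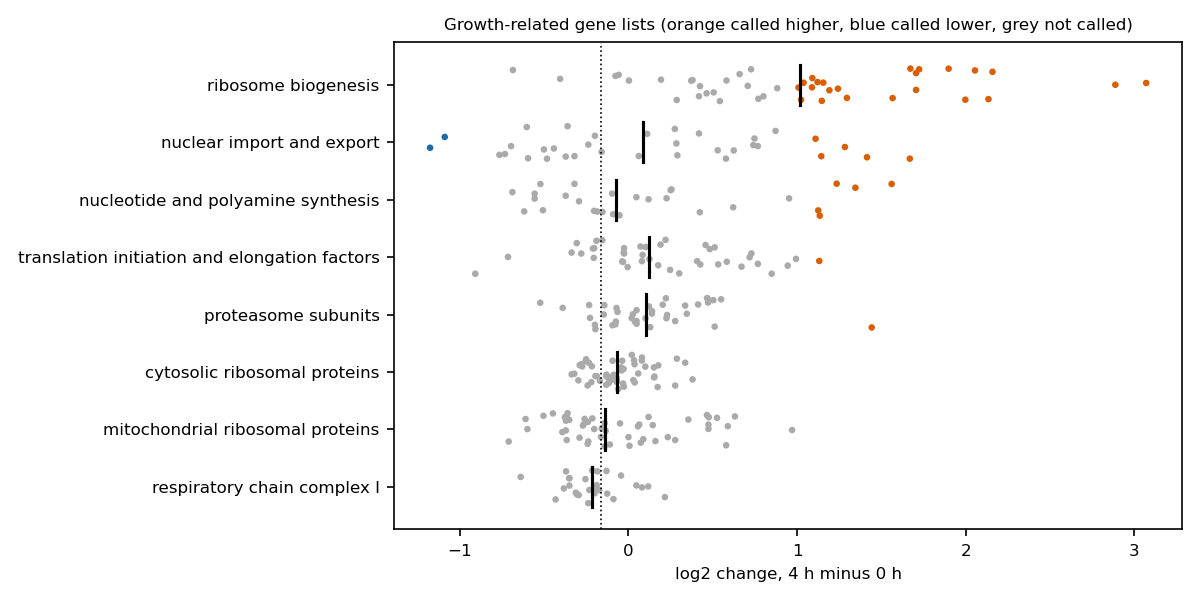
Log2 change, 4 h minus 0 h, of each tested member (points, with a random vertical offset) of 8 lists, with the list median as a black bar and the median of all genes, -0.16, as a dotted line. Ribosome biogenesis has a median of 1.02 and 23 of 44 members called higher, while no member of the ribosomal protein or complex I lists was called.

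Of 40 G1 cyclins, G1/S and replication genes, 4 were called higher and 5 lower, with a median of -0.50. CCND1, the growth-factor-induced cyclin D1, had 652, 758 and 589 at 4 h, against 187, 298 and 253 at 0 h, and E2F3, a G1/S transcription factor, had 402, 409 and 442 at 4 h, against 110, 126 and 104 at 0 h, with 0.32 by its other probe set. Also called higher were RFC5, whose other probe sets gave -1.07 and -0.19, and E2F5, and both are uncertain. E2F5 had 199, 135 and 152 at 4 h, against 174, 16.9 and 84.6 at 0 h, so its arrays overlap. Its call was lost without 0 h replicate 2 (0.34) and under several other alternatives. The replication genes MCM5 and GINS2 fell. MCM5, a helicase subunit, had 282, 274 and 273 at 4 h, against 769, 734 and 525 at 0 h, and GINS2 had 199, 170 and 126 at 4 h, against 432, 422 and 443 at 0 h. The number lower was 2 with the larger pseudocount, 3 with median centring and 8 without 0 h replicate 3.

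Regulators of apoptosis were called higher in 9 of 28 cases and lower in 0, with a median of 0.57, and included genes of opposite function. TNFRSF21, death receptor 6, had 5085, 5524 and 5443 at 4 h, against 440, 553 and 536 at 0 h. BCL2A1, a survival protein of the BCL2 family, had 312, 317 and 229 at 4 h, against 9.93, 25.8 and 45.6 at 0 h. PMAIP1, the pro-apoptotic NOXA, had 1842, 2093 and 1631 at 4 h, against 521, 295 and 320 at 0 h, and BID, another pro-apoptotic member, had 2177, 2105 and 2002 at 4 h, against 429, 424 and 568 at 0 h.

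Activins are dimers of inhibin beta chains, and follistatin (FST) binds and blocks them. Of 39 genes of the TGF-beta, activin and BMP pathways, 11 were called higher and 4 lower, with a median of 0.34. TGFB2 had 576, 676 and 593 at 4 h, against 2.09, 58.4 and 1.99 at 0 h, with 0.49 to 1.49 by its other probe sets. The activin chain INHBB had 1598, 1776 and 1376 at 4 h, against 319, 214 and 258 at 0 h, INHBA had 243, 144 and 136 at 4 h, against 6.39, 7.16 and 7.71 at 0 h, and FST had 3865, 2808 and 2420 at 4 h, against 332, 237 and 356 at 0 h. Activin chains and their antagonist rose together. The called falls were ID2, BMP4, BAMBI and TGFBR3. BAMBI, a decoy receptor, had 1443, 1182 and 1394 at 4 h, against 4793, 4073 and 4170 at 0 h, and TGFBR3, betaglycan, had 133, 115 and 156 at 4 h, against 330, 428 and 318 at 0 h. BMP4 was near the dim end at both times, and its call was lost without any 1 of 5 arrays (all 4 h replicates and 0 h replicates 1 and 3, -1.54 to -1.87).

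In the Wnt pathway, Frizzled receptors bind Wnt ligands, while RNF43 removes them from the surface and DKK1 blocks their co-receptor. Of 26 Notch and Wnt genes, 3 were called higher and 7 lower, with a median of -0.33. FZD5 had 319, 364 and 289 at 4 h, against 990, 1350 and 1113 at 0 h, and FZD4 had 117, 162 and 105 at 4 h, against 480, 393 and 515 at 0 h. WNT5A, a ligand, had 132, 110 and 137 at 4 h, against 466, 555 and 481 at 0 h, and RNF43 had 20.3, 14.3 and 17.6 at 4 h, against 203, 208 and 162 at 0 h. DKK1 went the other way, with 6364, 6802 and 4954 at 4 h, against 492, 440 and 498 at 0 h. JAG1, a Notch ligand, had 3367, 1988 and 3228 at 4 h, against 152, 152 and 254 at 0 h, from an uncertain _x_at probe set whose other probe sets gave 1.84 and 3.82. HES1, a Notch target named after its values were seen, had 317, 284 and 283 at 4 h, against 898, 654 and 386 at 0 h, with -0.24 by its other probe set. The Notch ligand and this target thus did not move together.

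Among 23 liver transcription factors, 4 were called lower and 1, GATA6, higher, with a median of -0.49. CEBPA, which maintains hepatocyte differentiation, had 28.1, 78.9 and 73.7 at 4 h, against 589, 629 and 658 at 0 h, a log2 change of -3.11 ± 0.35. CEBPB, its paralog and a factor of the acute phase, had 7780, 7591 and 9987 at 4 h, against 7218, 8336 and 8344 at 0 h, a change of 0.08 ± 0.12. The arrays of CEBPA are far apart and those of CEBPB overlap. GATA4, a factor of early liver development, had 13.8, 16.7 and 15.4 at 4 h, against 173, 113 and 83.7 at 0 h, and GATA6, its paralog, had 523, 487 and 726 at 4 h, against 303, 301 and 182 at 0 h. Both calls were fragile. That of GATA4 was lost without 0 h replicate 1 (-1.79), and that of GATA6 without 4 h replicate 3 (0.93) or 0 h replicate 3 (0.88). PROX1, a homeobox factor of hepatoblasts, had 21.2, 128 and 174 at 4 h, against 191, 461 and 241 at 0 h, and lost its call without 4 h replicate 1 (-0.82) or 0 h replicate 2 (-1.17). HLF, a clock-linked bZIP factor of liver, had 263, 352 and 395 at 4 h, against 1042, 988 and 862 at 0 h. With no pseudocount, 2 of the 23 were called lower.

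Of 37 plasma proteins, the main secretory product of hepatocytes, 3 were called lower and 0 higher (8.11% called, against 14.7% of all genes), with a median of -0.39. APOB, the structural protein of very low density lipoprotein, had 7645, 5411 and 7344 at 4 h, against 22760, 31821 and 23749 at 0 h, a log2 change of -1.94 ± 0.19. Complement C5 had 2271, 2282 and 2235 at 4 h, against 4486, 6170 and 5806 at 0 h, and clotting factor F5 had 1304, 1139 and 1081 at 4 h, against 2657, 2863 and 2937 at 0 h. TTR, transthyretin, had 61333, 65011 and 64974 at 4 h, against 68852, 76366 and 73896 at 0 h, a change of -0.20 ± 0.12 that was not called. Albumin changed by -0.26 ± 0.14 by its brightest probe set, which was not called, and by -3.35 and 0.50 by the others, so its change is uncertain. APOA1, the main apolipoprotein of high density lipoprotein, from an _x_at probe set, had 32084, 30380 and 30522 at 4 h, against 40686, 41838 and 45096 at 0 h (-0.46 ± 0.12, under 2-fold).

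Gluconeogenesis, glucose release and glycogen storage are specialised tasks of hepatocytes, induced in fasting by FOXO factors and PGC-1alpha and restrained by insulin. Of 18 genes, 7 were called lower and 1 higher (44.4% called), with a median of -0.73. PPP1R3C, which targets a phosphatase to glycogen, had 468, 564 and 472 at 4 h, against 2774, 3127 and 3101 at 0 h. G6PC1, glucose-6-phosphatase, had 227, 145 and 240 at 4 h, against 1214, 1153 and 1169 at 0 h, and PCK1, the committed enzyme of gluconeogenesis, had 179, 160 and 179 at 4 h, against 851, 588 and 819 at 0 h. FOXO3 had 352, 454 and 359 at 4 h, against 1542, 2192 and 1527 at 0 h. None of these 4 has overlapping arrays, where 25.0% of all genes tested lay wholly lower at 4 h. The courses differed before 4 h. PPP1R3C was already at 814 ± 174 at 1 h, whereas PCK1 began with 753 ± 144 at 0 h, averaged 2954 ± 503 at 1 h, then 173 ± 11.2 at 4 h and lastly 19 ± 22.4 at 8 h (SD, n = 3 each). The 1 gene called higher was SIK1, a kinase that restrains gluconeogenic transcription, with 1083, 860 and 913 at 4 h, against 448, 272 and 211 at 0 h.

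Insulin and growth hormone signalling had 5 of 24 genes called higher and 3 lower, with a median of -0.01. IGFBP1, an IGF-binding protein of liver that insulin represses, had 10111, 6242 and 8760 at 4 h, against 3272, 1961 and 746 at 0 h, below its mean of 18737 ± 2249 at 1 h. IGFBP3 had 2272, 2129 and 2162 at 4 h, against 534, 528 and 404 at 0 h. CISH, a suppressor of cytokine signalling induced by growth hormone, had 107, 107 and 34.6 at 4 h, against 381, 560 and 284 at 0 h, from an uncertain _x_at probe set. PIK3R1 fell by all its probe sets (-3.46, -2.44 and -2.17). TRIB1, a pseudokinase, had 2212, 2208 and 2409 at 4 h, against 1646, 1429 and 503 at 0 h, and lost its call without 0 h replicate 3 (0.56).

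Of 25 glycolysis and hypoxia genes, 4 were called higher and 1 lower (0 lower without 4 h replicate 1 or 0 h replicate 1 or 2, and 2 without 4 h replicate 2), with a median of -0.03. PFKP, the platelet-type phosphofructokinase, had 1917, 1612 and 1643 at 4 h, against 157, 84.4 and 170 at 0 h, and PFKFB3, which makes its activator, had 1937, 2749 and 2349 at 4 h, against 273, 337 and 313 at 0 h. HIF1A, the hypoxia-inducible factor, had 12579, 14541 and 12884 at 4 h, against 3804, 3814 and 3197 at 0 h, and EGLN3, a prolyl hydroxylase that acts on it, had 602, 566 and 541 at 4 h, against 101, 6.97 and 98.3 at 0 h. GAPDH, a glycolytic enzyme often used as a constant gene, had 26420, 24736 and 23150 at 4 h, against 29118, 22869 and 30754 at 0 h (-0.15 ± 0.14, not called, _x_at probe set). PFKM, the muscle-type isoform, was called lower with -1.01 ± 0.32, a call lost without 4 h replicate 1 (-0.64) or 0 h replicates 1 or 2 (-0.98 and -0.95).

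Every one of the 17 cholesterol synthesis and uptake genes tested had a negative log2 change, between -2.21 and -0.15, and 5 were called lower and 0 higher (29.4% called). INSIG1, which holds the sterol sensor in the endoplasmic reticulum, had 1446, 1170 and 1495 at 4 h, against 6603, 6189 and 6275 at 0 h, with -0.75 and -2.02 by its other probe sets. SC5D, an enzyme of the last steps, had 5448, 4836 and 5139 at 4 h, against 13384, 15134 and 12877 at 0 h, and DHCR7 had 1923, 1184 and 1891 at 4 h, against 3385, 4108 and 4281 at 0 h. The smallest of these changes lie within the shift of all genes. Across all genes the median was -0.16 and the upper quartile 0.32, so more of them had a negative sign than a positive one. Fatty acid oxidation and peroxisome genes were called lower in 3 of 27 cases (11.1%) and in 1 with median centring. EHHADH, a peroxisomal enzyme, had 1991, 1307 and 2369 at 4 h, against 3441, 4918 and 4197 at 0 h, and lost its call without 4 h replicate 2 (-0.93).

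Of 35 phase I and II genes, 3 were called lower and 2 higher (14.3% called, close to the 14.7% of all genes), with a median of -0.54, and without 0 h replicate 2 5 were called lower. CYP7A1, the committed enzyme of bile acid synthesis, had 14.1, 32.3 and 78 at 4 h, against 514, 428 and 468 at 0 h. CYP4F3, a fatty acid hydroxylase, had 1540, 1442 and 2583 at 4 h, against 6608, 7316 and 7235 at 0 h, and CYP3A5 had 1536, 1429 and 1641 at 4 h, against 4221, 5572 and 4988 at 0 h. The 2 that rose, CYP1A1 and CYP1B1, are both known targets of the aryl hydrocarbon receptor. CYP1A1 had 3489, 2770 and 2176 at 4 h, against 135, 249 and 172 at 0 h, and CYP1B1 had 1617, 1465 and 1468 at 4 h, against 531, 596 and 483 at 0 h. CYP3A4, the main drug-metabolising P450 and one of the hepatocyte markers, named after its values were seen, had 29532, 37317 and 34458 at 4 h, against 29584, 32406 and 34928 at 0 h, from an uncertain _x_at probe set. CYP3A4 therefore overlapped between the times while CYP3A5 did not.

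Amino acid breakdown and the urea cycle had 2 of 26 genes called higher and 2 lower (15.4% called, close to the 14.7% of all genes). The number higher was 1 without 4 h replicate 1 or 3 or 0 h replicate 1 or 3. CPS1, which starts the urea cycle, had 825, 1111 and 1298 at 4 h, against 2287, 2857 and 2674 at 0 h. HAL, histidine ammonia-lyase, rose, with 105, 171 and 299 at 4 h, against 18.5, 82.3 and 14.6 at 0 h. Of 25 amino acid response and tRNA synthetase genes, 1 was called higher (2 without 4 h replicate 1 or 0 h replicate 1) and 3 lower. ATF4, the factor that drives this response, had 8915, 7783 and 8100 at 4 h, against 3339, 2966 and 3810 at 0 h. EPRS1, a tRNA synthetase, had 240, 296 and 286 at 4 h, against 934, 1005 and 949 at 0 h, and DDIT4, an inhibitor of mTORC1, had 425, 403 and 424 at 4 h, against 1271, 1239 and 1656 at 0 h. A higher ATF4 transcript was thus not accompanied by a called rise in any other of the 25 genes. Chaperones of the endoplasmic reticulum were called lower in 4 of 24 cases and higher in 0, with a median of -0.46, and in 1 case with median centring. CANX, calnexin, had 5230, 5357 and 4762 at 4 h, against 9773, 12375 and 9837 at 0 h, a change of -1.05 ± 0.13 that lies at the 2-fold limit and was lost without 4 h replicate 3 or 0 h replicate 2 (-0.94), and without 4 h replicate 3 2 of the 24 were called lower.

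Of 32 ABC transporters, 9 were called lower and 2 higher (1 higher without 4 h replicate 1 or 0 h replicate 3), with a median of -0.45. The number lower was 4 with the larger pseudocount, 3 with median centring, 5 without 4 h replicate 2 and 4 without 0 h replicate 2. ABCC1, an efflux pump of broad range, had 1785, 2122 and 1785 at 4 h, against 461, 575 and 543 at 0 h. ABCA5 had 170, 136 and 231 at 4 h, against 430, 385 and 503 at 0 h. Solute carriers had 11 of 175 called higher and 17 lower (16.0% called). SLC20A1, a phosphate importer, had 5909, 4708 and 7562 at 4 h, against 1293, 1367 and 1050 at 0 h, and SLC33A1, an acetyl-CoA transporter, had 327, 384 and 478 at 4 h, against 998, 1440 and 1187 at 0 h. The 17 became 11 with the larger pseudocount or with median centring.

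In the circadian clock, CLOCK and BMAL1 activate the CRY and PER genes, whose products repress them. Of 14 clock and PAR bZIP genes, 4 were called higher and 4 lower, with a median of -0.50. The repressor CRY1 had 483, 654 and 416 at 4 h, against 91.4, 150 and 126 at 0 h, and PER2 had 376, 415 and 481 at 4 h, against 125, 103 and 108 at 0 h. BMAL1 had 258, 277 and 437 at 4 h, against 546, 806 and 740 at 0 h, and CLOCK had 200, 189 and 28.5 at 4 h, against 468, 429 and 298 at 0 h. The calls of the activators were fragile, as was that of PER3. That of CLOCK was lost without 4 h replicate 3 (-0.95), that of PER3 without 4 h replicate 2 or 3 (-1.44 and -1.52), and that of BMAL1 without 4 h replicates 1 or 2 or 0 h replicate 2 (-0.95 to -0.99). The number called lower was 2 without 4 h replicate 2 or 3, and the number called higher 2 without 0 h replicate 3.

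Interferon-stimulated and antigen presentation genes had 3 of 37 called higher and 5 lower, with a median of -0.01. In total 21.6% were called, against 14.7% of all genes, where 7.60% were higher and 7.10% lower. ISG20, an exonuclease, had 578, 784 and 773 at 4 h, against 112, 64.7 and 11.6 at 0 h, and GBP1, a guanylate-binding protein on an uncertain _x_at probe set, had 5092, 4801 and 6293 at 4 h, against 771, 763 and 694 at 0 h. IFI44 had 144, 211 and 240 at 4 h, against 507, 429 and 649 at 0 h, and IFIT1, a classical interferon target, had 5.08, 67.7 and 8.65 at 4 h, against 167, 98.4 and 291 at 0 h. The list thus holds members of both directions. Of 41 chromatin and transcriptional regulators, 3 were called higher and 8 lower, with a median of -0.47 (5 lower with the larger pseudocount). CITED2, a cofactor of CBP and p300, had 164, 288 and 203 at 4 h, against 1296, 891 and 736 at 0 h, and MED13, a Mediator subunit, had 289, 302 and 428 at 4 h, against 847, 1700 and 1001 at 0 h. KDM6B, a histone demethylase, had 560, 292 and 417 at 4 h, against 154, 196 and 164 at 0 h, and lost its call without 4 h replicate 1 (0.96).

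Genes with ZNF symbols, mostly zinc finger repressors, had 7 of 192 called higher and 13 lower (10.4% called), with a median of -0.25, and the number lower was 6 with the larger pseudocount and 5 with the stricter filter on dim probe sets. ZNF593 had 2133, 2146 and 2418 at 4 h, against 735, 662 and 821 at 0 h. Histones had 0 of 28 called higher and 2 lower (1 lower without 4 h replicate 3 or 0 h replicate 2 or 3). Rab GTPases, which direct vesicle traffic, had 6 of 38 called higher and 2 lower (1 lower without 4 h replicate 2), and RAB8B had 1045, 846 and 1065 at 4 h, against 15.8, 92.1 and 82.9 at 0 h.

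**Figure D5:**
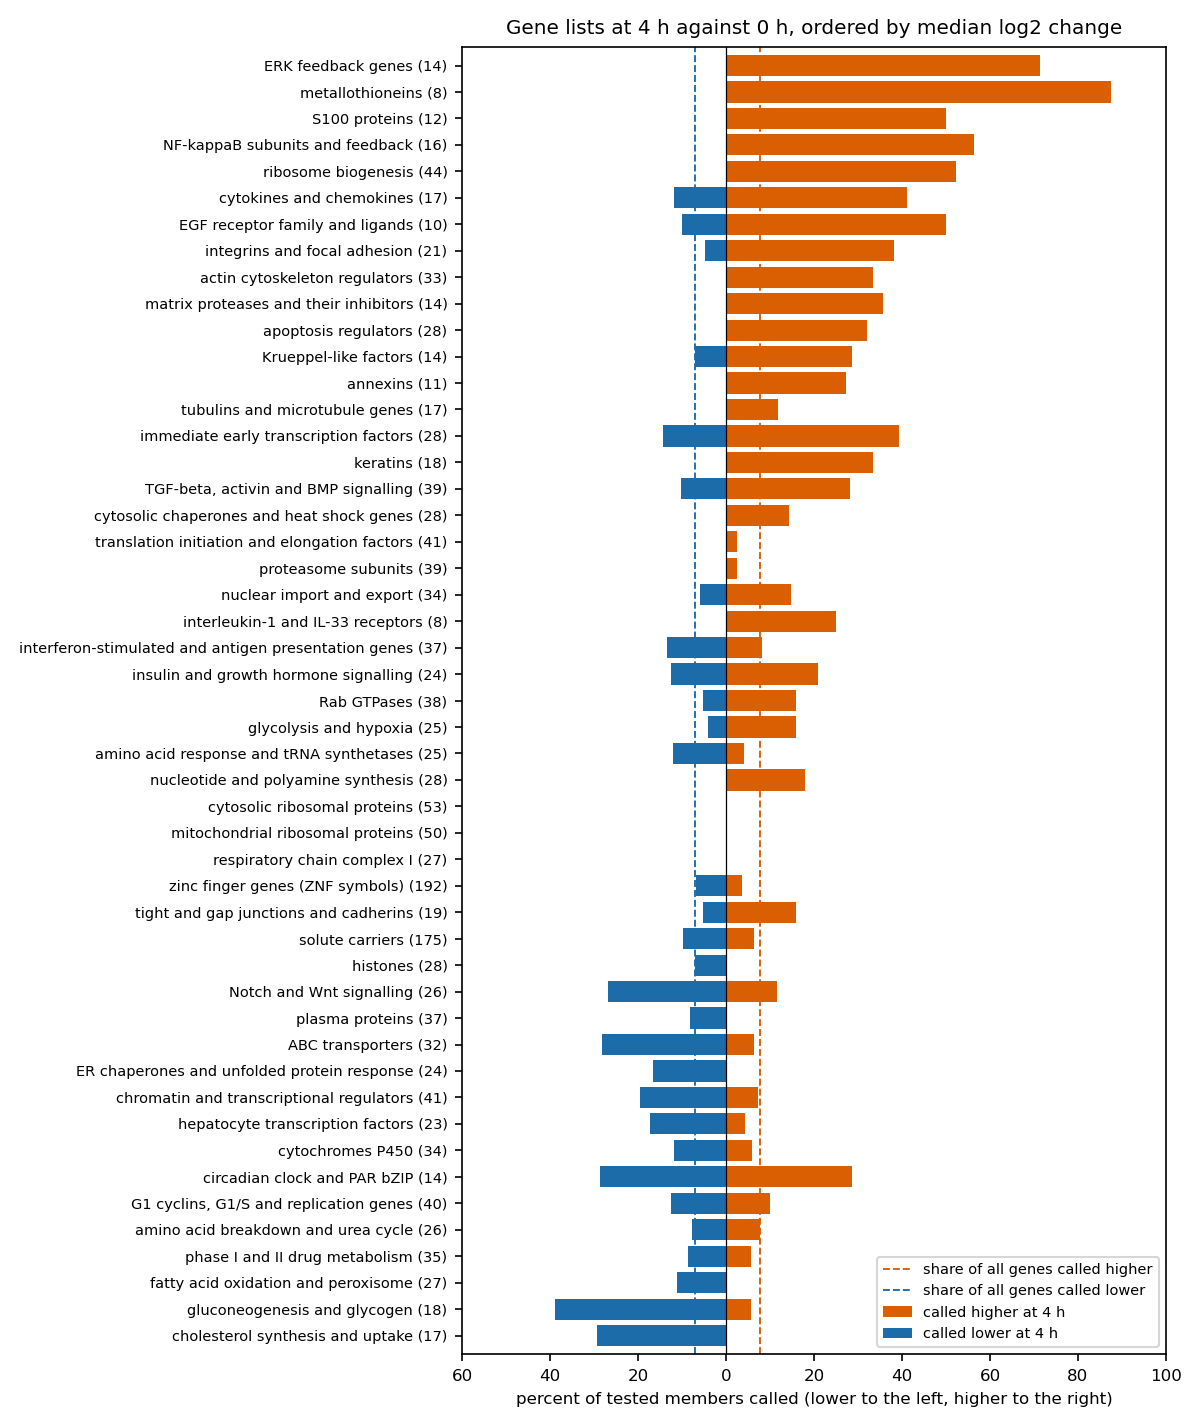
Share of the tested members of each list shown (number in parentheses) called higher at 4 h than at 0 h (orange, to the right) or lower (blue, to the left), in percent, with lists ordered from the highest median log2 change at the top. The dashed lines mark the 7.60% and 7.10% of all genes called higher and lower; ERK feedback genes and metallothioneins stand at the top, and gluconeogenesis and cholesterol genes at the bottom.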

How the data were processed

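RNA of 24 HepaRG samples, 3 at each of 8 times, was hybridized to a 1-colour Affymetrix array with 22283 probe sets, 68 of them controls. The authors deposited intensity values on a linear scale, which MAS5 produced, per the submitters' processing notes; which release and target scaling they used is not given here. Targets were labelled by 3' in vitro transcription per the labels' protocols, so the 3' ends of transcripts are mainly read. Detection calls were not used here, and 0 arrays had the same values as another.

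The analysis used log2(signal + 18), with the 20th percentile of signals (18) added and no further normalization. Testing required a signal over the array's 40th percentile on 3 or more arrays (17122 probe sets). Symbols came from the platform's annotation table, with 1 symbol for 19065 probe sets, several for 1043 and none for 2107. Those with several symbols name no gene. Of 19053 probe sets whose symbol was looked up in RefSeq, 0 changed. Each gene was represented by its brightest tested probe set, which left 9966 genes, 763 of them on _x_at probe sets, where cross-hybridization makes the name uncertain. For a called gene that is described, other probe sets are given where 1 of them has the opposite sign.

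limma 3.58.1 in R 4.3.3 (lmFit, eBayes with a trend) was fitted to all 24 arrays without a replicate block. The contrast was 4 h minus 0 h, two-sided, with Benjamini-Hochberg adjustment over all 9966 genes. The procedure was tested on simulated data. Values at 1 h and 8 h come from the same fit and, where set against 0 h, share its 3 arrays. Same-numbered arrays of 4 h and 0 h did not deviate together (correlations of -0.01, -0.01 and 0.01), and the fit did not pair them. Deviations from means of 3 arrays cannot show whether a number marks a shared culture. The 56 gene lists, their members and the comparison itself were chosen with earlier results of these data known. Named genes are the 15 largest rises and 15 largest falls with no overlap of arrays, up to 4 called members in each direction of each list, and a short set always given, such as ALB and MYC. Others are marked as named after their values were seen, and some that meet the rule are not described. Lists share members, and some are not reported here. A list is described by its counts and, in most cases, its median. The counts are to be read against the 7.60% and 7.10% of all genes called higher and lower. The median is to be read against the -0.16 of all genes.

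Alternatives were no pseudocount, a larger one (73.8), quantile normalization, median centring, no filter, a stricter filter (60th percentile), probe sets averaged per gene, the 6 arrays alone, the replicate block, each array left out, and, chosen after seeing the data, no _x_at probe sets. Promoters came from RefSeq (GRCh38.p14). Plotting used Python 3.11.15 and matplotlib 3.10.9.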

Additional observations from a re-analysis of the deposited data

How the results depend on the processing

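The number of genes called higher ranged from 586 to 915 and the number lower from 425 to 734 over the alternatives. Only the number lower with the larger pseudocount, 425 against 708, moved by more than 1.5 times, and 423 of these were among the 708. Leaving out single arrays gave 722 to 768 higher and 589 to 730 lower, with the lowest number lower without 0 h replicate 2. Quantile normalization gave 861 and 644, median centring 915 and 481, no pseudocount 792 and 733, no filter 753 and 734 of 11963 genes, the stricter filter 699 and 595 of 6873, the mean of probe sets 684 and 650, the 6 arrays alone 714 and 672, and no _x_at probe sets 738 and 698. The replicate block gave 756 and 710 and changed no call of a named gene. Of the 261 named genes, 32 lost their call with the larger pseudocount, 18 with median centring and 15 to 22 when an array was left out. With probe sets averaged per gene, NUP98 (-0.27), RAB6B (-0.29) and RFC5 (-0.03) changed sign and 24 others lost their call, and without _x_at probe sets JUN changed sign (0.17). These genes have probe sets that disagree. With the mean of probe sets albumin was called lower (-1.04). Other list counts that moved by more than 1.5 times included members called lower for plasma proteins (5 against 3, mean of probe sets), members called higher for cytosolic chaperones (2 against 4), nuclear transport (3 against 5), nucleotide synthesis (3 against 5) and insulin and growth hormone signalling (3 against 5, all with the mean of probe sets), Rab genes (3 against 6) and cholangiocyte markers (1 against 4, both with the larger pseudocount), and cholangiocyte markers without 4 h replicate 3 (2 against 4). The causes were not tested. Signals near the added 18 limit what can be said of dim genes.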

Other observations

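The genes called at 4 h differed in the length of their genomic span, measured from start to end of the gene in RefSeq (GRCh38.p14). The median span was 28.7 kb for the 757 genes called higher, 54.3 kb for the 707 of the 708 called lower that have a span, and 30.4 kb for all genes tested. The quartiles were 10.9 and 77.1 kb for the higher and 21.2 and 136 kb for the lower genes. Over all alternatives the median lay between 26.8 and 29.2 kb for the higher and between 48.8 and 56.9 kb for the lower genes, with 48.8 kb without 0 h replicate 2. The median signal of the genes called lower was 170 at 4 h and 451 at 0 h, and that of those called higher 817 at 4 h and 235 at 0 h. The direction of each of these differences in signal follows from the call itself, which does not use the span. No test was made of these descriptions, and the part of signal level in them was not tested.

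Of the 1465 genes called, 563 had another tested probe set. For 445 of these every other probe set changed in the same direction, and for 18 another probe set changed by at least 2-fold in the opposite one.

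A motif of MYC and its relatives, the E-box CACGTG, was found on either strand in 2 of the 20 ribosome biogenesis genes called higher that had a promoter entry, against 8.62% of the promoters of genes tested. No match says only that these letters are not within the 250 bases searched.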
